A study of Mus musculus with 18 samples.

Results

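Serine, the folate-bound one-carbon units made from it, and the uptake or synthesis of other amino acids were followed through 10 genes in 6 mouse pluripotent stem cell lines. The genes were Phgdh, Psat1, Psph, Shmt2, Mthfd2, Aldh1l2, Asns, Pck2, Slc7a11 and Slc7a5, chosen by symbol from 18193 measured genes. They were read by 21 of the 45037 probe sets of the array, taking each probe set whose annotation gave a single symbol among the 10. The lines were 4 induced pluripotent (iPS) lines made from somatic cells (IP14D-1 and IP14D-101, IP20D-3, IP36D-3) and the embryonic stem (ES) lines R1 and ESC2, each measured as total RNA on 3 arrays. The strain label of IP14D-1, IP20D-3, IP36D-3 and ESC2 was B6 x D2 F1, that of IP14D-101 was B6 x 129S2 F1, and that of R1 was 129X1/SvJ x 129S1 F1. All were grown with LIF, a cytokine that holds mouse ES cells undifferentiated, on fibroblast feeders whose division had been stopped with mitomycin C.

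The culture medium bears on these genes, because it supplied amino acids. It was DMEM with nonessential amino acids at 0.1 mM, pyruvate at 1 mM, glutamine at 2 mM and β-mercaptoethanol, a reducing agent, at 0.1 mM, plus either 15% fetal bovine serum or 20% of a serum replacement. The labels do not tie either supplement to a line, so medium and line cannot be told apart where they differed. Each iPS line was a single line of its label, and the series' design text describes the 3 arrays of a line as biological replicates without saying whether they were separate cultures. The p-values therefore measure the spread between these arrays, whichever it was.

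Phgdh, Psat1 and Psph act in that order in the cytosol to make serine from an intermediate of glycolysis. Shmt2 splits serine into glycine and a one-carbon unit inside mitochondria, and Mthfd2 and Aldh1l2 oxidise that unit on folate. Such units are used to build purines and thymidylate, and mouse ES cells are known for a high demand for them. Asns makes asparagine from aspartate, and Pck2 makes phosphoenolpyruvate from oxaloacetate in mitochondria. Slc7a11 imports cystine in exchange for glutamate, and Slc7a5 imports large neutral amino acids. Cells raise many genes of this kind when amino acids run short, through the transcription factor ATF4, which binds a short DNA element in its targets.

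The letters TGATGNAA, the core of that element, were searched on both strands of 300 bases of each promoter, from 250 before to 50 after the RefSeq start of the gene on the GRCm38.p6 build. Promoters of 8 of the 10 genes were searched, those of Aldh1l2 and Slc7a5 not, and a gene with several starts was counted once. The letters stood in 3 of those 8 genes (Asns, Pck2 and Slc7a11), against 4.51% of 27025 mouse genes searched in the same way. The 3 promoters are printed 5′ to 3′ in the direction of the gene, because Asns and Pck2 were among the members with called differences and Slc7a11 was not. Capitals mark the 8 letters of each match.
Asns, chr6:7693160-7693459, minus strand: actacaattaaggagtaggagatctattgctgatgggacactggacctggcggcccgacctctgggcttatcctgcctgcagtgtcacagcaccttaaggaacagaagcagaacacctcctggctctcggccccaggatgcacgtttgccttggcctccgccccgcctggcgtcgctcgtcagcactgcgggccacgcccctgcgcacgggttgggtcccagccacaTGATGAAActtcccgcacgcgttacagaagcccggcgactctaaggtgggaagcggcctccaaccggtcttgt
Pck2, chr14:55540016-55540315, plus strand: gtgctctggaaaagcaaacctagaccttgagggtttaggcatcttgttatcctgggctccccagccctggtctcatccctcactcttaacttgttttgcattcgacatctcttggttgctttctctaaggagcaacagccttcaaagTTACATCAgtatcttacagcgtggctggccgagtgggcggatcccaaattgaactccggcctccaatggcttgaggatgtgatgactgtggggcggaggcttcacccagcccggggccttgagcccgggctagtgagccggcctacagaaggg
Slc7a11, chr3:50443564-50443863, minus strand: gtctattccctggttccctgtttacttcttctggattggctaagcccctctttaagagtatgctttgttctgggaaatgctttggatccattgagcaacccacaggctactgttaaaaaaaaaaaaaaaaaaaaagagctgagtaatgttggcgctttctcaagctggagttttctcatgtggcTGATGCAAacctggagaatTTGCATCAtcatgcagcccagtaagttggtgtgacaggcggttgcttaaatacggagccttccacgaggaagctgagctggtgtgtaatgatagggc
In Asns the match began at position -23 relative to the start, on the strand of the gene. In Pck2 it began at -103 and read TGATGTAA on the opposite strand. Slc7a11 held a match on each strand, at -66 and -47. Another pair of patterns was searched on both strands: CACGTG, bound by MYC-type factors, stood in 0 of the 8 genes against 8.09% of all, and TGACNNNGC, the core of the element bound by NRF2, in 3 of the 8 (Phgdh, Psph and Asns) against 3781 of the 27025 genes. A match is a description of letters, and no binding was measured here.

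Values are log2 of the deposited intensities, and all levels below are on that scale. A difference is the mean of a line minus the mean of another, in log2, with the standard error (SE) of limma's model and its p adjusted over all 45037 probe sets. A gene was called higher or lower at an adjusted p under 0.05 and a difference of at least 1, which is 2-fold in intensity. A gene with several probe sets is represented by the one with the highest mean over the 18 arrays. Levels of different genes are not compared, since probes differ in how strongly they bind. By RefSeq's GRCm38.p6 annotation Phgdh and Slc7a11 lie on chromosome 3, Psph on 5, Mthfd2 and Asns on 6, Slc7a5 on 8, Shmt2 and Aldh1l2 on 10, Pck2 on 14 and Psat1 on 19.

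IP20D-3 had the highest mean of 8 of the 10 genes, and IP14D-1 that of Slc7a11 and Slc7a5. ESC2 had the lowest mean of 9, and IP36D-3 that of Aldh1l2. Among the 4 lines of 1 strain label, the mean order over the group was thus IP20D-3 above IP14D-1, with IP36D-3 and ESC2 at the bottom. IP14D-101 and R1, the lines of other strains, lay between IP20D-3 and ESC2 for most genes. Single genes departed from this order: IP14D-1 was above IP20D-3 for Slc7a5 and Slc7a11, and IP36D-3 was above IP14D-1 for Psat1. The plot of levels by array shows each gene.

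**Figure D1:**
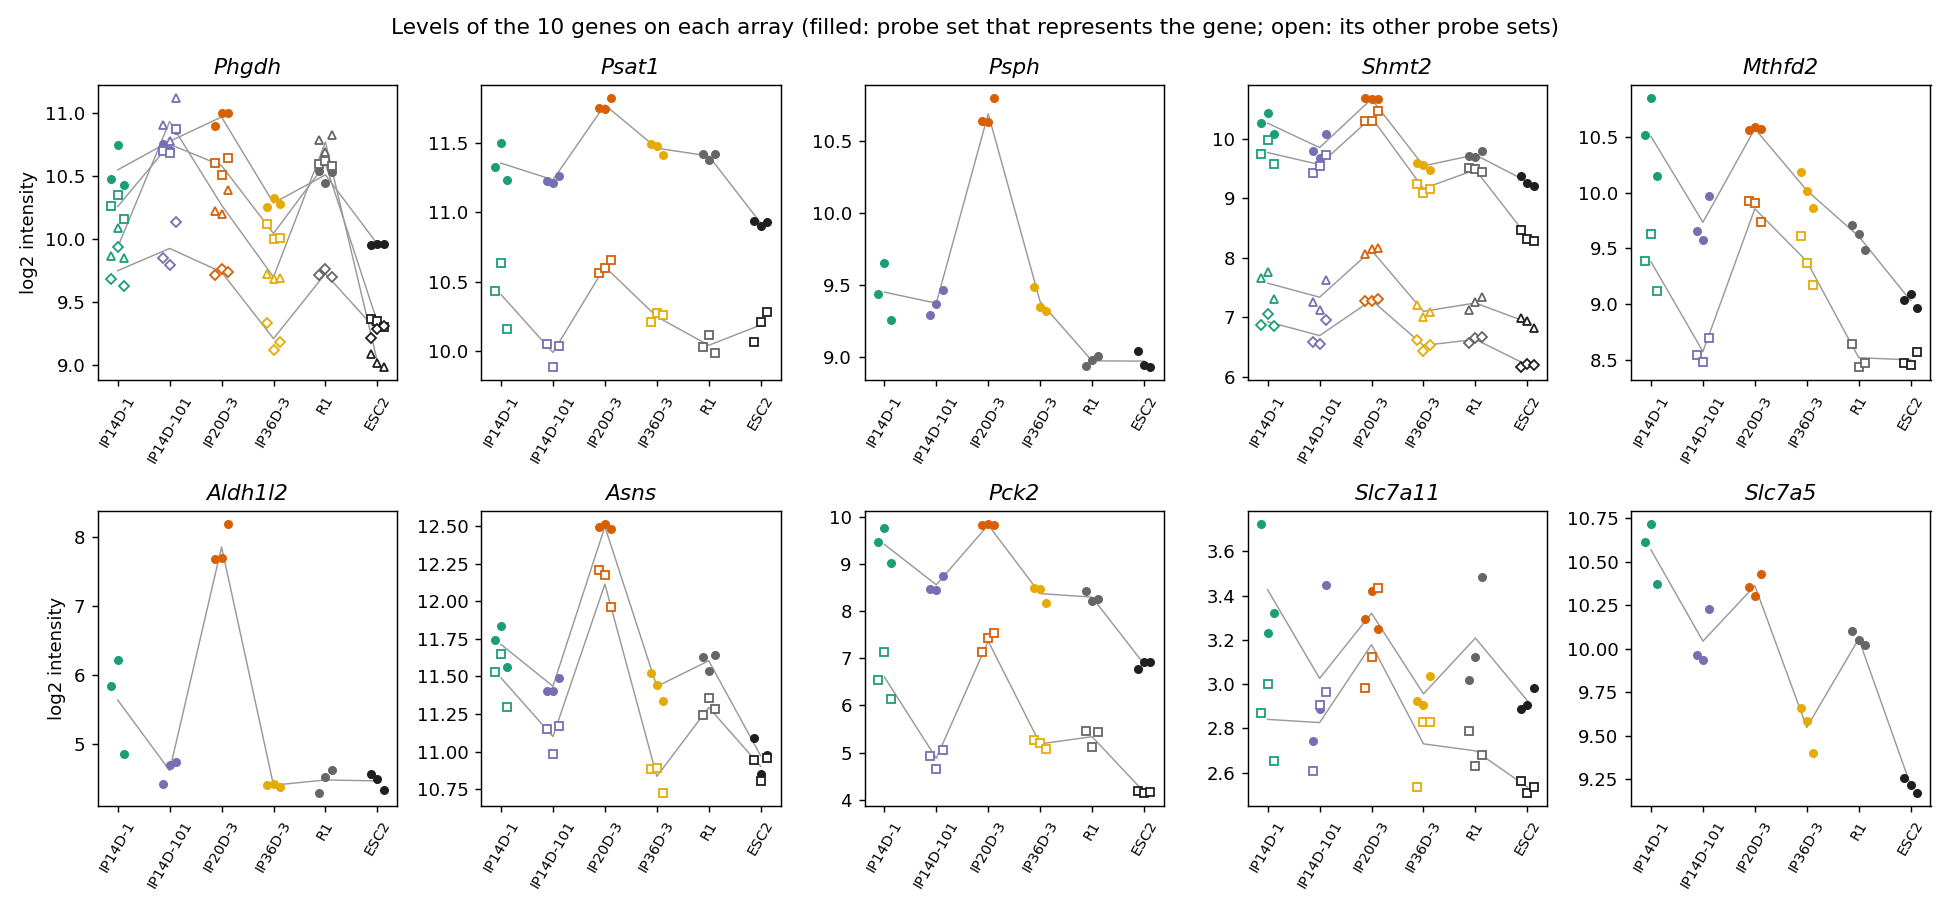
Log2 intensity of each of the 10 genes (1 panel each) on each array, by line along the horizontal axis. Filled points are the probe set that represents the gene and open points its other probe sets. IP20D-3 is highest in 8 panels, ESC2 is lowest in 9, and Slc7a11 lies near the bottom of the array in every line.

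Of the genes of serine synthesis, Psph, the phosphatase that releases serine, stood apart in IP20D-3. It read 9.44, 9.65 and 9.26 on the IP14D-1 arrays, 9.29, 9.37 and 9.47 in IP14D-101, 10.64, 10.64 and 10.80 in IP20D-3, and 9.49, 9.34 and 9.32 in IP36D-3. In the ES lines it read 8.94, 8.97 and 9.0 in R1 and 9.04, 8.94 and 8.93 in ESC2. The IP20D-3 arrays were all above those of the other lines, the other iPS lines overlapped each other, and both ES lines lay below every iPS array. The difference from ESC2 was 1.72 in IP20D-3 (SE 0.09, limma adjusted p = 1.58e-10) and between 0.40 and 0.48 in the other iPS lines. R1 differed from ESC2 by 0.00148 (SE 0.09), the smallest difference among the 10 genes in any comparison with ESC2. Going down the order of lines, the neighbouring means differed at an adjusted p under 0.05 from IP20D-3 to IP14D-1 (1.685e-08) and from IP14D-101 to R1 (0.006067), and not between IP14D-1, IP36D-3 and IP14D-101.

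Phgdh, which commits carbon from glycolysis to serine, was read by 4 probe sets that ordered the lines differently. Its representative probe set read 10.47, 10.74 and 10.43 in IP14D-1, 10.75, 10.71 and 10.86 in IP14D-101, 10.90, 11.00 and 11.00 in IP20D-3, and 10.25, 10.33 and 10.27 in IP36D-3. It read 10.54, 10.45 and 10.53 in R1 and 9.95, 9.96 and 9.96 in ESC2. All arrays of the other 5 lines were above those of ESC2. The difference from ESC2 was 1.01 in IP20D-3 (SE 0.08, limma adjusted p = 2.33e-08), just past the size for a call, and 0.33 to 0.81 in the other 4 lines. Without IP20D-3 replicate 2 or without replicate 3 it was 0.99 and no longer called. Another Phgdh probe set read 9.86, 10.09 and 9.85 in IP14D-1, 10.90, 10.78 and 11.11 in IP14D-101, 10.22, 10.20 and 10.39 in IP20D-3. It read 9.72, 9.68 and 9.69 in IP36D-3, 10.79, 10.69 and 10.83 in R1, and 9.08, 9.01 and 8.99 in ESC2. By that probe set IP14D-101 and R1 were the highest lines, 1.90 and 1.74 above ESC2, and IP20D-3 was 1.24 above it. A further one also placed them highest, with line means of 10.26 in IP14D-1, 10.75 in IP14D-101, 10.58 in IP20D-3, 10.04 in IP36D-3, 10.60 in R1 and 9.34 in ESC2, and IP14D-101, R1 and IP20D-3 called. The last one had means of 9.75 in IP14D-1, 9.92 in IP14D-101, 9.74 in IP20D-3, 9.21 in IP36D-3, 9.72 in R1 and 9.27 in ESC2. By it IP36D-3 had the lowest mean, which did not differ from that of ESC2 (limma, adjusted p = 0.7051), and no line was called, IP20D-3 being 0.47 above ESC2. All 4 Phgdh probe sets end in x_at, the suffix for probes that can match other sequences. IP14D-101 and R1, together at the top by some of them, have 129S2 or 129X1/SvJ in the strain label. By the representative probe set IP20D-3 was highest, and by the last one R1 was below IP14D-1 and IP20D-3. A strain difference under the probes was not tested, and 2 further Phgdh probe sets that carried several symbols were not used.

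Psat1, the aminotransferase between them, differed from ESC2 in all 5 lines by less than the size for a call. It read 11.33, 11.50 and 11.23 in IP14D-1, 11.22, 11.21 and 11.26 in IP14D-101, 11.75, 11.74 and 11.82 in IP20D-3, and 11.49, 11.48 and 11.41 in IP36D-3. It read 11.42, 11.38 and 11.42 in R1 and 10.94, 10.90 and 10.93 in ESC2. Every array of the other lines was above every ESC2 array, and the IP20D-3 arrays were above all others. The differences from ESC2 were 0.43 in IP14D-1, 0.31 in IP14D-101, 0.85 in IP20D-3, 0.54 in IP36D-3 and 0.48 in R1, all with SE 0.07 and at limma adjusted p between 4.53e-08 and 0.0021. Its other probe set did not place ESC2 lowest: the ESC2 mean of 10.19 lay above the means of 9.99 in IP14D-101 and 10.04 in R1.

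The mitochondrial one-carbon enzymes were likewise highest in IP20D-3. Shmt2, the first step, read 10.27, 10.43 and 10.09 in IP14D-1, 9.80, 9.68 and 10.08 in IP14D-101, 10.68, 10.67 and 10.66 in IP20D-3, and 9.59, 9.57 and 9.48 in IP36D-3. It read 9.70, 9.70 and 9.79 in R1 and 9.37, 9.25 and 9.21 in ESC2. No array of another line was as low as those of ESC2, and the IP20D-3 arrays were above all others. Shmt2 was 1.39 above ESC2 in IP20D-3 (SE 0.10, limma adjusted p = 4.44e-09) and 0.98 above it in IP14D-1 (SE 0.10), just under the size for a call, which it reached without ESC2 replicate 1 (1.03) or without IP14D-1 replicate 3 (1.07). All 4 Shmt2 probe sets placed IP20D-3 first, IP14D-1 next and ESC2 last. The largest differences came from the Shmt2 probe set without that suffix, with 1.41 in IP14D-1, 1.21 in IP14D-101, 2.00 in IP20D-3 and 1.12 in R1 called, and 0.81 in IP36D-3 not called.

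Mthfd2, the dehydrogenase that takes the unit on from Shmt2, was high in both IP14D-1 and IP20D-3. It read 10.52, 10.84 and 10.15 in IP14D-1, 9.66, 9.57 and 9.97 in IP14D-101, 10.56, 10.59 and 10.56 in IP20D-3, and 10.18, 10.01 and 9.86 in IP36D-3. It read 9.71, 9.63 and 9.49 in R1 and 9.04, 9.09 and 8.97 in ESC2. The IP14D-1 arrays spread over more than the gap to IP20D-3 and to IP36D-3, so that IP14D-1 overlapped both, while ESC2 stood below all other arrays. It was called higher than ESC2 in IP14D-1, by 1.47 (SE 0.14, limma adjusted p = 3.46e-07), and in IP20D-3, by 1.54 (SE 0.14, adjusted p = 7.20e-08). The difference was 0.70 in IP14D-101, 0.99 in IP36D-3 and 0.58 in R1. That of IP36D-3 was called without ESC2 replicate 2 (1.01) or without IP36D-3 replicate 3 (1.06). IP14D-1 and IP20D-3 did not differ from each other beyond their spread (-0.07, SE 0.14). By its other probe set IP20D-3 was called at 1.35, but IP14D-1, at 0.88, was not. In it the 3 highest lines were again IP20D-3, IP36D-3 and IP14D-1, and the means of IP14D-101, R1 and ESC2 lay between 8.50 and 8.58.

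Aldh1l2, a mitochondrial formyl-folate dehydrogenase, had the widest range of line means among the 10. It read 5.83, 6.21 and 4.86 in IP14D-1, 4.41, 4.69 and 4.73 in IP14D-101, 7.68, 7.70 and 8.19 in IP20D-3, and 4.40, 4.42 and 4.38 in IP36D-3. It read 4.29, 4.52 and 4.61 in R1 and 4.56, 4.49 and 4.33 in ESC2. IP20D-3 was far above every other array, IP14D-1 was variable, and the other 4 lines overlapped at levels under the array medians, which lay between 4.86 and 4.93. The difference from ESC2 was 3.39 in IP20D-3 (SE 0.23, limma adjusted p = 2.02e-09) and 1.17 in IP14D-1 (SE 0.23, adjusted p = 0.000651). Since ESC2 was near background, the size of these differences is uncertain, and leaving out the highest IP14D-1 array brought that line to 0.88, under the size for a call. The other 3 lines differed from ESC2 by -0.06 to 0.15.

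Asns and Pck2 draw on aspartate and oxaloacetate, which are linked by transamination. Asns read 11.74, 11.84 and 11.56 in IP14D-1, 11.41, 11.41 and 11.49 in IP14D-101, 12.49, 12.51 and 12.48 in IP20D-3, and 11.52, 11.44 and 11.34 in IP36D-3. It read 11.63, 11.54 and 11.64 in R1 and 11.09, 10.85 and 10.97 in ESC2. IP20D-3 stood above and ESC2 below all other arrays, and the arrays of the 4 lines between them ran from 11.34 to 11.84. The difference from ESC2 was 1.52 in IP20D-3 (SE 0.09, limma adjusted p = 2.14e-10), and 0.74, 0.46, 0.46 and 0.63 in IP14D-1, IP14D-101, IP36D-3 and R1. By its other probe set IP20D-3 was again highest, and the mean of 10.84 in IP36D-3 was below the 10.90 of ESC2.

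By its representative probe set Pck2 was called higher than ESC2 in every other line, the only one of the 10 genes for which this held. It read 9.46, 9.76 and 9.01 in IP14D-1, 8.48, 8.45 and 8.74 in IP14D-101, 9.81, 9.84 and 9.81 in IP20D-3, and 8.48, 8.46 and 8.17 in IP36D-3. It read 8.41, 8.22 and 8.25 in R1 and 6.77, 6.93 and 6.92 in ESC2. The ESC2 arrays were more than 1 below the lowest array of any other line, and the IP20D-3 arrays were above all others. The differences from ESC2, each with SE 0.14, were 2.54 in IP14D-1 (a 5.81-fold intensity), 1.68 in IP14D-101, 2.95 in IP20D-3 (7.72-fold), 1.49 in IP36D-3 and 1.42 in R1, with limma adjusted p between 3.66e-11 and 4.14e-07. IP14D-101, IP36D-3 and R1 could not be ordered among themselves, as their neighbouring means did not pass an adjusted p of 0.05 (0.3165 and 0.7035). Its other probe set, at lower levels, gave the same line as highest and the same line as lowest, with means of 7.36 in IP20D-3 and 4.17 in ESC2. By it 4 of the 5 lines were called, and IP14D-101, at 0.71 above ESC2, was not.

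The transporters differed from each other. Slc7a5 read 10.61, 10.72 and 10.37 in IP14D-1, 9.96, 9.94 and 10.23 in IP14D-101, 10.35, 10.30 and 10.43 in IP20D-3, and 9.66, 9.58 and 9.40 in IP36D-3. It read 10.10, 10.05 and 10.02 in R1 and 9.26, 9.22 and 9.17 in ESC2. ESC2 was lowest and IP36D-3 next, with no overlap between them, and IP14D-1 overlapped IP20D-3 at the top. It was called higher than ESC2 in IP14D-1, by 1.35 (SE 0.10, limma adjusted p = 2.36e-08), and in IP20D-3, by 1.15 (SE 0.10, adjusted p = 4.42e-08). The differences were 0.83 in IP14D-101, 0.33 in IP36D-3 and 0.84 in R1. Slc7a5 lies on chromosome 8, whose 932 measured genes had a median difference between IP36D-3 and ESC2 of 0.30, against 0.05 for the genes of the other chromosomes. The part of that shift in the Slc7a5 value was not tested.

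Slc3a2, the heavy chain that both transporters need to reach the cell surface, was named for that partnership after its values were seen. It was 1.10 above ESC2 in IP14D-1 and 1.32 above it in IP20D-3, both called, and 0.32, 0.76 and 0.37 above it in IP14D-101, IP36D-3 and R1. Slc7a11 itself stayed at the bottom of the array. Its line means ran from 2.93 in ESC2 to 3.43 in IP14D-1, and its representative probe set lay on average at the 19.6th percentile of an array and its other one at the 12.4th. By the representative probe set none of the 5 neighbouring pairs in the order of lines differed at an adjusted p under 0.05. Its differences from ESC2 were between 0.03 and 0.50 and none was called, with the largest, in IP14D-1, at a limma adjusted p of 0.022 (SE 0.16). The other probe set placed IP20D-3 highest, at 3.18, and ESC2 lowest, at 2.54, with IP20D-3 differing from its neighbour IP14D-1 at a limma adjusted p of 0.04175 and no line called against ESC2. All line means of both lay at or below the lower quartile of the arrays, between 3.32 and 3.49, where intensities carry little information on the amount of RNA.

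Counted over the 10 genes, IP20D-3 had 8 called higher than ESC2 (Phgdh, Psph, Shmt2, Mthfd2, Aldh1l2, Asns, Pck2 and Slc7a5), against 5.22% of all genes. IP14D-1 had 4 called higher (Mthfd2, Aldh1l2, Pck2 and Slc7a5), against 2.08% of all genes. IP14D-101, IP36D-3 and R1 had 1 each, Pck2, against 4.67%, 1.91% and 4.38% of all genes. None of the 10 was called lower in these 5 comparisons, in which 1.36% of all genes were called lower in IP14D-1, 4.06% in IP14D-101, 3.38% in IP20D-3, 1.47% in IP36D-3 and 3.75% in R1. By probe sets, 16 of 21 were called higher in IP20D-3, against 4.25% of all probe sets, and 6 of 21 in IP14D-1, against 1.59%. In R1 and IP14D-101 the called probe sets were of Phgdh, Shmt2 and Pck2, and in IP36D-3 of Pck2 alone. The shares of all probe sets were not counted for these lines, so their counts are not given. That Pck2 stood alone in R1 and IP14D-101 thus rests on the choice of probe set.

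The median difference of the 10 genes from ESC2 was 0.86 in IP14D-1, 0.52 in IP14D-101, 1.46 in IP20D-3, 0.37 in IP36D-3 and 0.52 in R1. Over all genes it was 0.06, 0.15, 0.01, 0.05 and 0.15 in the same lines. IP14D-101 and R1 were thus shifted as a whole against ESC2, and with differences centred on the median gene Pck2 was still their 1 called member. In IP20D-3 that centring left 7 called, Phgdh at 1.01 having been the nearest to the size for a call. These 5 comparisons share the ESC2 arrays, so a low ESC2 value raises all of them together.

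**Figure D2:**
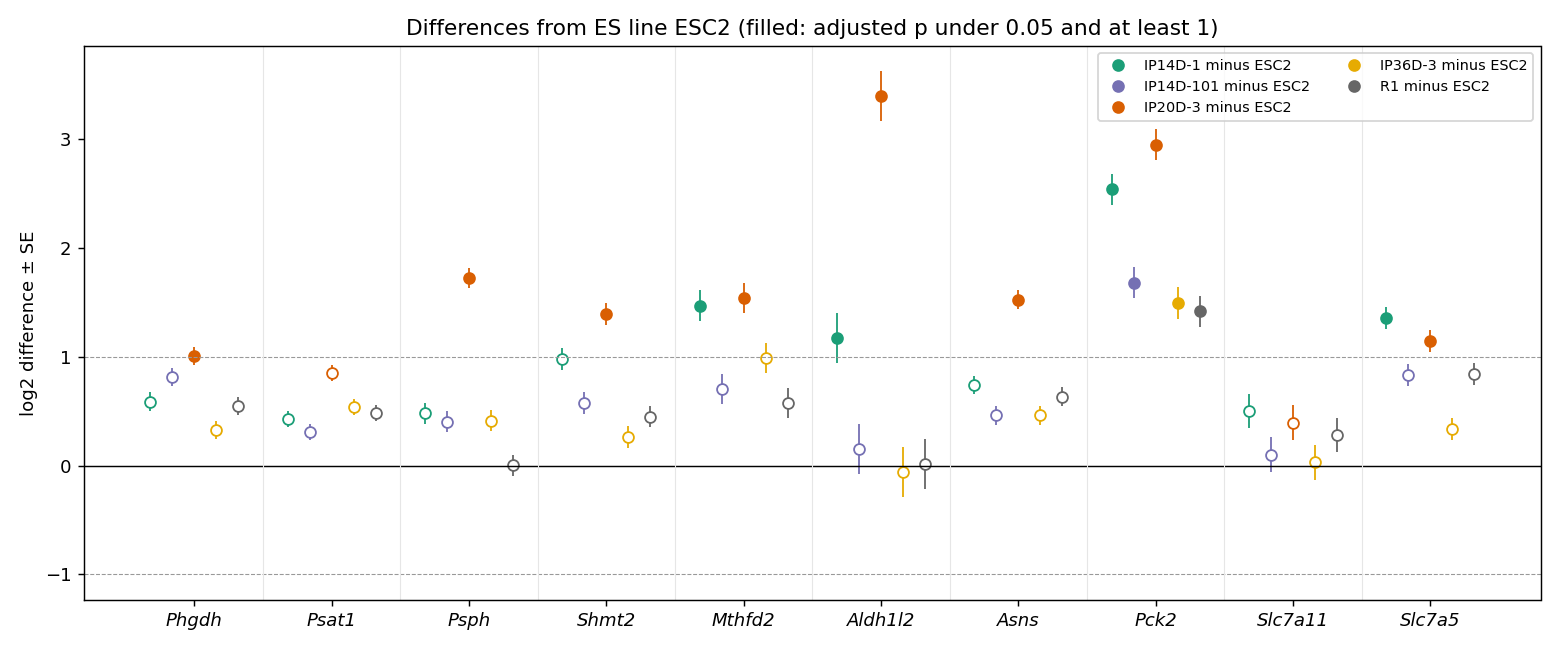
Log2 difference of each of the 10 genes from ESC2, for IP14D-1, IP14D-101, IP20D-3, IP36D-3 and R1 in that order within each gene. Points are differences of line means over 3 arrays each, bars are the standard error, and filled points were called. Pck2 is filled in all 5 lines, and 8 genes are filled for IP20D-3.

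Several measures of the arrays moved with the lines. The ratio of 3′ to 5′ signal of β-actin, which rises as RNA is shortened, was 1.27 in IP14D-1, 1.14 in IP14D-101, 1.28 in IP20D-3, 1.26 in IP36D-3, 1.12 in R1 and 1.53 in ESC2, the line where most of the genes were lowest. The same ratio for Gapdh ran the other way, with 0.961 in IP14D-1, 0.961 in IP14D-101, 0.909 in IP20D-3, 0.906 in IP36D-3, 0.958 in R1 and 0.891 in ESC2. The 18S ribosomal RNA signal ran 71.7 to 88.5 in IP14D-1, 37.8 to 46.5 in IP14D-101, 178.3 to 539.5 in IP20D-3, 160.6 to 242.3 in IP36D-3, 50.5 to 60.2 in R1, and 203.1 to 230.1 in ESC2. It was thus higher in IP20D-3, IP36D-3 and ESC2 than in the other 3 lines. The 10 markers of pluripotency were all at or above 6 in every line. Of 13 measured fibroblast markers, 2 reached 6 in IP14D-1, 3 in ESC2 and 0 in the other lines. Their summed level was 64.4 in IP14D-1, 55.5 in IP14D-101, 51.4 in IP20D-3, 53.5 in IP36D-3, 56.8 in R1 and 62.0 in ESC2. It was thus highest in IP14D-1 and lowest in IP20D-3, the lines where the 10 genes tended to be highest. Of 12 primitive endoderm markers, 8 reached 6 in IP14D-101 and 2 or 3 in each other line, with a summed level of 84.0 in IP14D-101 and between 57.2 and 62.9 elsewhere. The part of RNA quality and of other cells in the differences was not tested, and in bulk RNA fewer cells of a type and less RNA per cell cannot be told apart.

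Comparisons that leave ESC2 out asked whether the iPS lines differed among themselves. Against IP36D-3, a line of the same strain label, 5 of the 10 genes were called higher in IP20D-3, against 2.36% of all genes. They were Aldh1l2 at 3.46 (SE 0.23), Pck2 at 1.46 (SE 0.14), Psph at 1.31 (SE 0.09), Shmt2 at 1.12 (SE 0.10) and Asns at 1.06 (SE 0.09), with limma adjusted p between 5.27e-09 and 4.74e-07. Slc7a5 was 0.81 and Phgdh 0.68 higher without reaching the size for a call. These 5 were also among the 8 called against ESC2, a comparison that shares the IP20D-3 arrays.

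IP14D-1 against IP36D-3 gave 3 called higher, against 1.5% of all genes: Aldh1l2 at 1.24 (SE 0.23), Pck2 at 1.04 (SE 0.14) and Slc7a5 at 1.02 (SE 0.10). All were close to the size for a call, so that 0 were called without IP14D-1 replicate 2 and 1 (Aldh1l2) without IP36D-3 replicate 3. Slc7a5 was 0.997 without IP14D-1 replicate 1. On chromosome 8, where Slc7a5 lies, the median difference of this pair was -0.22, against 0.02 on the other chromosomes, the direction opposite to that of Slc7a5. Between IP14D-1 and IP20D-3, 2 of the 10 were called lower in IP14D-1, against 2.8% of all genes. They were Aldh1l2 at -2.22 (SE 0.23) and Psph at -1.24 (SE 0.09). Mthfd2, Slc7a11 and Slc7a5 overlapped between these lines.

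IP14D-101 and R1, an iPS and an ES line, gave 0 of 10 called, against 2.52% of all genes called higher or lower. Psph at 0.40 (SE 0.09) and Phgdh at 0.27 (SE 0.08) passed an adjusted p of 0.05 in limma without the size for a call. The other 8 genes differed by between -0.18 and 0.26. Over all 15 pairs of lines and all genes, 43.8% of the comparisons passed an adjusted p of 0.05 at any size. Of the 15 pairs, Phgdh and Slc7a5 passed in 13 each, Shmt2, Mthfd2 and Pck2 in 12 each, Psph and Asns in 11 each, Psat1 in 10, Aldh1l2 in 9 and Slc7a11 in 2.

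**Figure D3:**
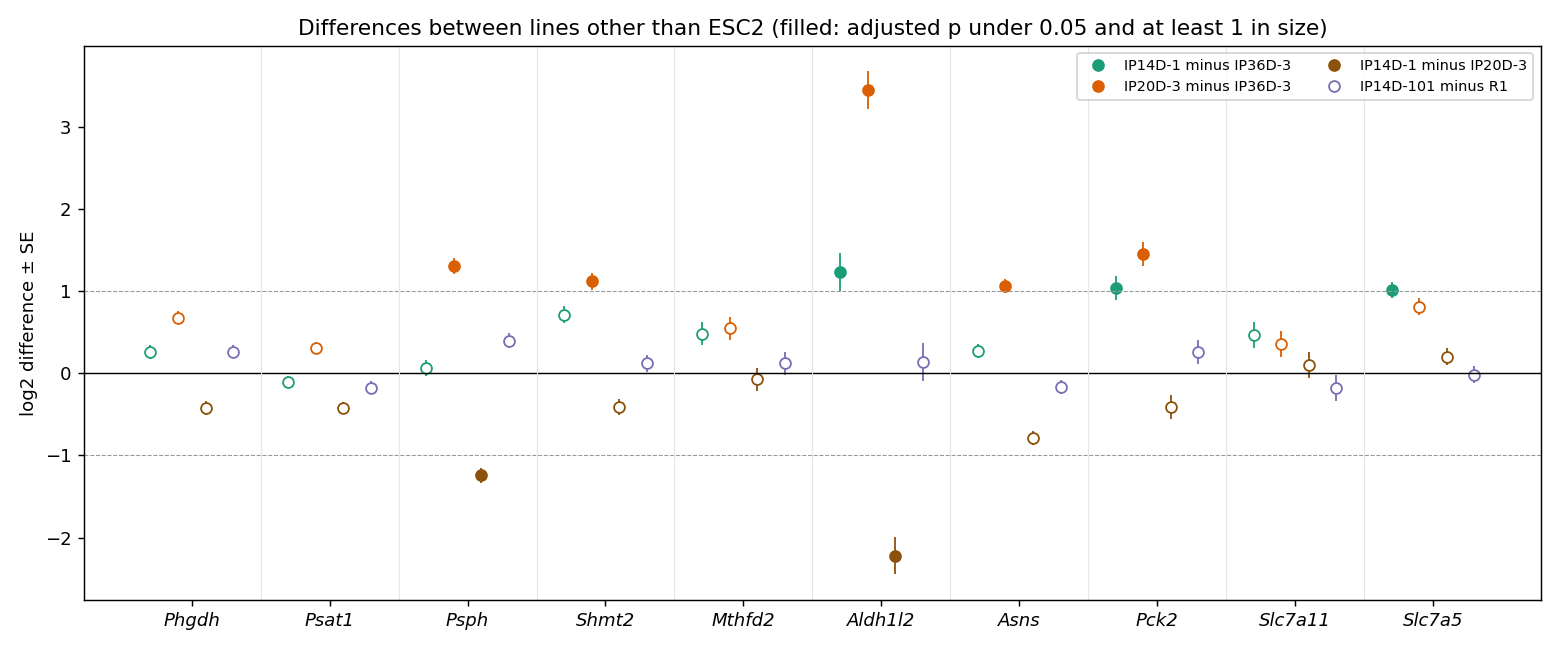
Log2 differences of the 10 genes between lines other than ESC2: IP14D-1 minus IP36D-3, IP20D-3 minus IP36D-3, IP14D-1 minus IP20D-3, and IP14D-101 minus R1. Points, bars and filling are as in the plot of differences from ESC2. Aldh1l2, Psph and Pck2 spread most, and no point of IP14D-101 minus R1 is filled.

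The iPS lines as a group were set against the ES lines on line means, 4 against 2. None of the 10 genes was called in limma (adjusted p = 1 for each), nor was any gene of the array (0%), and 2 of the 10 had an unadjusted p under 0.05, as did 729 of 18193 genes. Those 2 were Mthfd2, with a difference of 0.89 (SE 0.30), and Pck2, with 1.46 (SE 0.55). All 10 differences were positive, with a median of 0.54, against -0.00417 over all genes. For Psph, Mthfd2 and Pck2, 3 of the 10, the 4 iPS means all lay above the 2 ES means, as they did for 5.01% of all genes. For Psph the iPS lines averaged 9.73 ± 0.65 (SD, n = 4 lines), against 8.97 in each ES line. For the other 7 genes R1 lay among the iPS lines.

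The arrays of a line also differed together. In IP14D-1, replicate 2 was the highest of the 3 arrays for 9 of the 10 genes and replicate 3 the lowest for 9. In IP14D-101, replicate 3 was the highest for all 10. This was not a matter of few probe sets, as the same array led for 20 of 21 in each line. Pck2 in IP14D-1 is an example, with 9.76 in replicate 2, 9.01 in replicate 3 and an SD of 0.38 among the arrays. In the other lines its SD ran from 0.02 in IP20D-3 to 0.17 in IP36D-3. The genes thus did not vary independently within these 2 lines, and a count over genes is not a count of separate observations.

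Across the 6 line means, each of the 45 pairs of these genes had a Pearson r above 0, between 0.48 and 0.96 with a median of 0.81. Pck2 and Mthfd2 were most alike at 0.96, and Psph and Aldh1l2, both set by IP20D-3, reached 0.95. These are descriptions over 6 lines that share their arrays between genes. After scaling each gene to its own mean and SD, the mean profile of the 10 was 1.40 in IP20D-3, 0.57 in IP14D-1, -0.15 in IP14D-101, -0.18 in R1, -0.38 in IP36D-3 and -1.26 in ESC2. Of 3952 other genes whose line means spanned at least 1, those most like that profile were P2rx4, Ephx1, Nfe2l1, Cmc1, Tbx3, Phf11d, Slc6a9 and Adm2, with Pearson r over the 6 lines between 0.98 and 0.99. Slc6a9 imports glycine, and its means were 8.14 in IP20D-3, 7.82 in IP14D-1 and 5.95 in ESC2.

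Of the 10 genes, 4 encode mitochondrial enzymes with a cytosolic counterpart, a comparison chosen after the values were seen. Shmt1, which runs the Shmt2 reaction in the cytosol, differed from ESC2 by 0.26 in IP14D-1, 0.46 in IP14D-101, 0.12 in IP20D-3, 0.34 in IP36D-3 and 0.57 in R1, none called. Mthfd1, the cytosolic folate enzyme, differed by -0.39, 0.19, 0.17, 0.38 and 0.01 in the same lines, none called. In IP20D-3, where Shmt2 and Mthfd2 were called at 1.39 and 1.54, the cytosolic genes were thus at 0.12 and 0.17. Aldh1l1 was called in R1 alone, at 1.21, and was 0.39 in IP20D-3, where Aldh1l2 was 3.39. Line means of Aldh1l1 ran from 4.27 to 5.48, around the array medians, so little can be read from its small differences. Pck1 stayed between 2.79 and 3.22 in line means, near the bottom of the arrays, and was called in no line. Other mitochondrial one-carbon genes were not called in IP20D-3: Mthfd2l was at -0.61, Slc25a32 at -0.57, Gcsh at -0.41, Mthfd1l at 0.41 and Gldc at 0.43. The pairs thus do not stand for mitochondrial genes as a whole. The difference within each pair of enzymes was not itself tested.

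**Figure D4:**
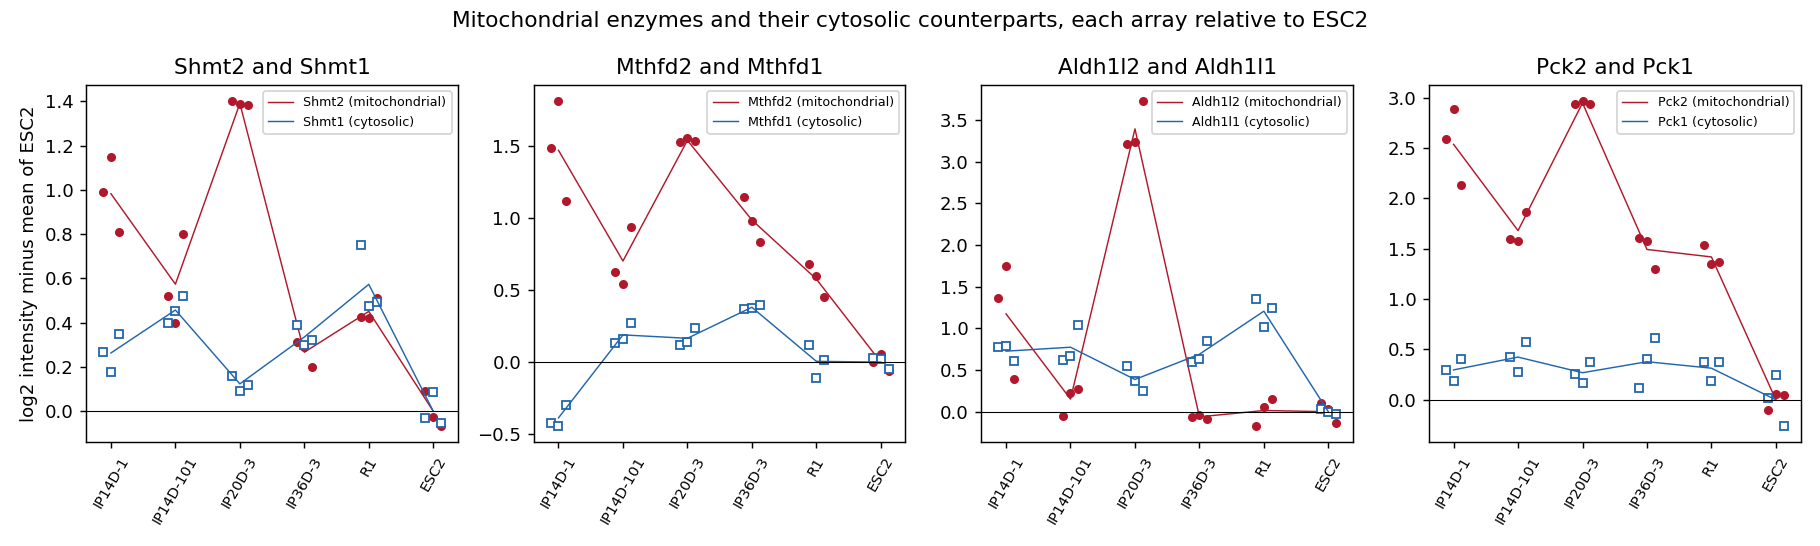
Log2 intensity of each array relative to the ESC2 mean, by line, for Shmt2 and Shmt1, Mthfd2 and Mthfd1, Aldh1l2 and Aldh1l1, and Pck2 and Pck1 (mitochondrial enzymes as circles, cytosolic ones as squares). In IP20D-3 the mitochondrial enzymes shown are 1.39 to 3.39 above ESC2 on average, and the cytosolic ones 0.12 to 0.39. Pck1 and Aldh1l1 read at low levels in every line, where differences carry little information.

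Other genes of the same pathways were taken from lists. Of 29 measured further genes of serine, glycine, folate and methionine metabolism, 1 was called higher than ESC2 in IP20D-3 and 0 lower, against 5.22% and 3.38% of all genes. In IP14D-1, 1 was called higher and 2 lower, against 2.08% and 1.36%. The share called higher was thus near or below that of all genes. The riser in both lines was Cth, which makes cysteine from cystathionine, at 2.45 in IP20D-3 (SE 0.10) and 1.01 in IP14D-1 (SE 0.10), and those lower in IP14D-1 were Mthfd2l at -1.07 and Slc25a32 at -1.04. The list's median difference was -0.14 in IP20D-3 and 0.06 in IP14D-1, against 0.01 and 0.06 over all genes. The other 28 measured genes in IP20D-3 and 26 in IP14D-1 were not called.

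Of 26 further amino acid transporters, 5 were called higher than ESC2 in IP20D-3, against 5.22% of all genes, and 5 in IP14D-1, against 2.08%, with 0 lower in either. In IP20D-3 they included the cationic amino acid transporter Slc7a1 at 2.32 (SE 0.14), Slc6a9 at 2.19 (SE 0.15), the alanine, serine and cysteine transporter Slc1a4 at 2.16 (SE 0.20) and the glutamine transporter Slc1a5 at 1.49 (SE 0.13). In IP14D-1 Slc1a4 was 1.95, Slc6a9 1.87 and Slc7a1 1.30 higher. The median of the list was 0.03 in IP20D-3 and -0.00327 in IP14D-1, and 21 of the 26 were not called in either line.

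Of 19 aminoacyl-tRNA synthetases, which load tRNAs with amino acids, 7 were called higher than ESC2 in IP20D-3 (all genes 5.22%), 3 in IP14D-1 (2.08%), 2 in IP14D-101 (4.67%), 1 in IP36D-3 (1.91%) and 3 in R1 (4.38%). The 1 of 19 in IP36D-3 is a count too small to set apart from the share of all genes. Aars, for alanine, was called in all 5 lines, at 1.44 in IP14D-1, 1.28 in IP14D-101, 1.85 in IP20D-3, 1.38 in IP36D-3 and 1.31 in R1. Sars, for serine, was 1.83 and Cars, for cysteine, 1.75 higher in IP20D-3. The median of the list was 0.62 in IP20D-3, against 0.01 over all genes. Against IP36D-3, 0 of the 19 were called in IP20D-3, with a median of 0.39.

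A list of 15 genes covered the metabolism of aspartate, glutamate, proline, arginine and branched-chain amino acids. In IP20D-3, 3 were called higher and 1 lower than ESC2 (all genes 5.22% and 3.38%). In IP14D-1, 4 were higher and 1 lower (2.08% and 1.36%). IP14D-101 had 3 higher and 1 lower (4.67% and 4.06%). IP36D-3 had 2 higher and 1 lower (1.91% and 1.47%), and R1 3 higher and 0 lower (4.38% and 3.75%). Aldh18a1, which starts proline synthesis from glutamate, was called in all 5 lines: 2.06 in IP14D-1, 1.48 in IP14D-101, 2.50 in IP20D-3, 1.13 in IP36D-3 and 1.40 in R1. Gpt2, a mitochondrial alanine aminotransferase, was 2.39 higher in IP20D-3, 1.60 in IP14D-1 and 1.20 in IP14D-101. Bcat2, for branched-chain amino acids, ran in another order. It was called at 2.425 in IP14D-101, 2.22 in R1, 1.95 in IP14D-1 and 1.29 in IP36D-3, and not in IP20D-3, at 0.41. Bcat1 was called at 1.61 in IP20D-3, 1.525 in R1 and 1.27 in IP14D-1. The gene called lower in IP20D-3, named after its values were seen, was the arginase Arg2, whose means of 2.88 in IP20D-3 and 4.62 in ESC2 both lay under the array medians, so that no size is given. The list's median was 0.23 in IP20D-3 and 0.15 in IP14D-1, and larger in IP14D-101 (0.70), R1 (0.44) and IP36D-3 (0.37). Of 6 genes of gluconeogenesis, the pathway Pck2 can feed, 1 was called higher in IP20D-3 (Fbp2, at 1.70) and 0 in IP14D-1 (all genes 5.22% and 2.08%). The count was 2 in IP14D-101 (4.67%), 1 in R1 (4.38%) and 0 in IP36D-3 (1.91%). Such counts are too small to set apart from the shares of all genes. Of 12 genes of glutathione synthesis and the NRF2 response, to which Slc7a11 belongs, 0 were called higher in IP20D-3 or IP14D-1 (all genes 5.22% and 2.08%). Only Gclm was called lower in IP20D-3, at -1.495 (SE 0.10), against 3.38% of all genes. IP14D-101 had 1 higher and 0 lower (4.67% and 4.06%), and R1 2 higher and 1 lower (4.38% and 3.75%). In IP36D-3 none was called (1.91% and 1.47%). The medians of the gluconeogenesis list were 0.27 in IP20D-3 and 0.18 in IP14D-1, and those of the glutathione list -0.02 and -0.15.

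Of 22 measured ATF4 regulators and other targets, 14 were called higher than ESC2 in IP20D-3 (all genes 5.22%), 13 in IP14D-1 (2.08%), 6 in IP36D-3 (1.91%), 3 in R1 (4.38%) and 2 in IP14D-101 (4.67%), and 0 lower in any. Atf4 itself read 11.98, 11.87 and 11.70 in IP14D-1, 10.71, 10.69 and 10.81 in IP14D-101, 12.15, 12.10 and 12.06 in IP20D-3. It read 11.74, 11.66 and 11.19 in IP36D-3, 10.50, 10.33 and 10.45 in R1, and 10.66, 10.68 and 10.72 in ESC2. IP20D-3 and IP14D-1 were highest, and the arrays of IP14D-101, R1 and ESC2 ran from 10.33 to 10.81. The difference from ESC2 was 1.17 in IP14D-1 and 1.42 in IP20D-3, both called (SE 0.11 each), and 0.05, 0.85 and -0.26 in IP14D-101, IP36D-3 and R1. Chac1, a glutathione-degrading enzyme, was 5.34 higher in IP14D-1 and 5.10 in IP20D-3, and the transcription factor Ddit3 3.13 and 3.53. The median of the list was 1.34 in IP20D-3 and 1.26 in IP14D-1.

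The order of lines for Atf4 was not that of the 10 genes throughout. In IP36D-3 Atf4 was 0.85 above ESC2, under the size for a call, and Ddit3 was 1.73 above it. There 1 of the 10 genes, Pck2, was called. At any size, Pck2 was not the only one of the 10 to pass an adjusted p of 0.05 in limma. The share of all genes that passed in this pair of lines was not counted, so no count is given. In R1 Atf4 was 0.26 lower than in ESC2 without passing an adjusted p of 0.05 (limma, 0.072), and Pck2 was 1.42 higher. These are RNA levels, and ATF4 protein and activity were not measured. The part of ATF4 in the levels of the 10 genes was not tested. Of the genes with a promoter searched, TGATGNAA stood in 7 of 23 of the ATF4 list, in 5 of 13 of the tRNA synthetases and in 0 of 28 of the further serine and folate genes, against 4.51% of all genes.

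A list of 15 held chaperones and other genes of the endoplasmic reticulum, many of them controlled by a different arm of the stress response. In IP20D-3, 1 was called higher and 4 lower than ESC2 (all genes 5.22% and 3.38%). In IP14D-1, 1 was higher and 3 lower (2.08% and 1.36%). The riser was Herpud1, at 2.63 in IP20D-3 and 2.03 in IP14D-1, and it was also called in IP36D-3, at 1.72. Of 13 genes of this list with a promoter searched, TGATGNAA stood in 1, Herpud1, against 4.51% of all genes. The chaperone Hspa5 was called lower, at -1.62 in IP20D-3 and -1.10 in IP14D-1. The list's median was -0.62 in IP20D-3 and -0.52 in IP14D-1, in the direction opposite to that of the 10 genes. It was negative in the other lines too, at -0.40 in IP14D-101, -0.17 in IP36D-3 and -0.39 in R1. Hspa5 was -0.65, -0.54 and -0.68 in these lines, not called. The direction was thus shared by every line set against ESC2.

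**Figure D5:**
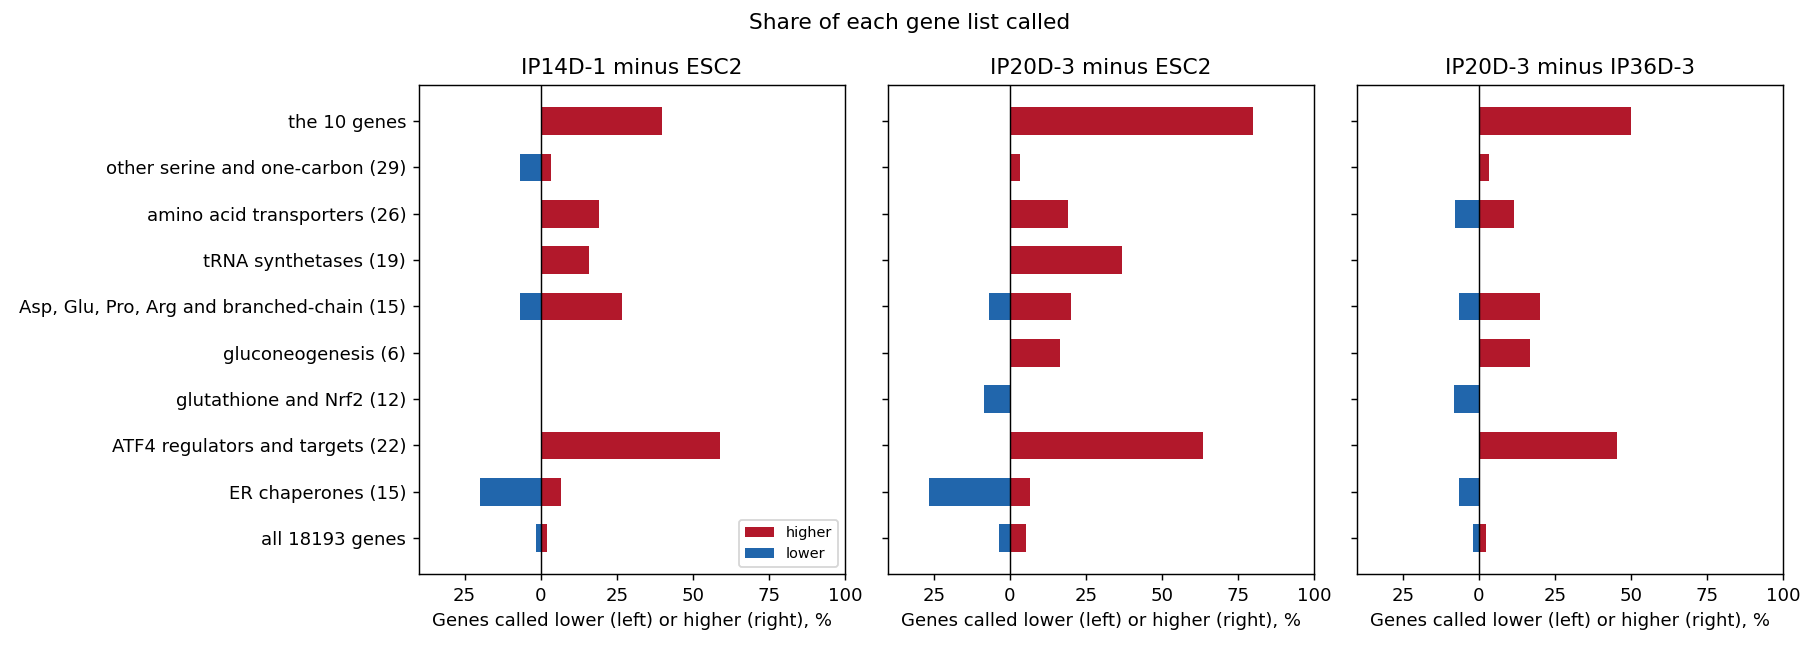
Share of the measured genes of each list called lower (left of 0) or higher (right of 0), in percent, by comparison. In the panel of IP20D-3 against ESC2 the 10 genes (8 of 10) and the ATF4 list (14 of 22) reach furthest right, and the chaperone list reaches left with 4 of 15.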

How the data were processed

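Total RNA of 6 cell lines, 3 arrays each, was measured on Affymetrix expression arrays. The authors deposited probe set intensities on a linear scale, made with the Bioconductor RMA method per the labels' design text. RMA subtracts background, equalises the distributions of the arrays by quantiles and summarises the probes of a set. Its version is not given here in any source used. RMA shrinks differences of dim probe sets, which bears on Aldh1l2 and Slc7a11. Array medians lay between 29.1 and 30.5, and having 3 arrays per line limits the precision of every value.

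Of 45101 probe sets 64 controls were left out, and log2 was taken of the rest. Symbols came from the platform annotation, with 34945 probe sets giving 1 symbol, 932 several and 9160 none, and 34741 were found by gene ID in RefSeq's GRCm38.p6 table. A gene was counted by the probe set of its own that had the highest mean. Lines were taken from the labels. limma 3.58.1 (R 4.3.3) fitted all 18 arrays with 1 mean per line, leaving 12 residual degrees of freedom, and the contrast of iPS with ES lines used the 6 line means. Benjamini-Hochberg adjustment ran over all 45037 probe sets within a contrast. Tables and plots were made in Python 3.11.15 (pandas 2.3.3, numpy 2.4.6, matplotlib 3.10.9).

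The 10 genes, the pathway lists and the tests were chosen with earlier results of these data known. By the rule for named genes, the text names all 10 with every probe set, up to 4 called genes per list with a mean of at least 6 in the higher line, and the 8 genes most like the mean profile. On simulated data with 200 of the 45037 probe sets shifted by 1.5 in log2, all (100%) were recovered for IP20D-3 against ESC2, with 0 false calls. The shifted probe sets each represented a gene and had a mean of at least 6. Noise was drawn independently for each array. The simulation thus does not cover dim genes such as Aldh1l2 and Slc7a11, nor arrays of a line that move together. No pair among the 153 pairs of arrays shared more than 2.15% of its values exactly. Same-numbered arrays of different lines were checked for deviations in common: 17 of 45 pairs correlated above 0.1, and 1 pair of lines, IP14D-1 and IP36D-3, did so in all 3 numbers (0.25, 0.191 and 0.22), with no label behind it. Alternatives were a replicate block, other scalings, filters, probe set rules and variance models, and leaving out each array; centring differences on the median gene was added after seeing the data.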

Additional observations from a re-analysis of the deposited data

Results flagged for a closer look

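Psph in IP20D-3, with a line mean of 10.7, stood apart from the other 3 iPS lines, whose means lay between 9.37 and 9.45. Its gap to the nearest of them was 0.942 of the range of the 4 lines, above Dixon's 95% critical value for 4 values. The 21 probe sets of the 10 genes were examined in this way and this was the 1 that passed, while chance alone passes about 1 group in 20. All 3 IP20D-3 arrays read at or above 10.64. The cause was not tested.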

How the results depend on the processing

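The count of called members ranged, on leaving out each array of the lines compared, from 3 to 5 in IP14D-1 against ESC2, 7 to 8 in IP20D-3 against ESC2, 1 to 2 in IP36D-3 against ESC2 (2 without ESC2 replicate 2 or IP36D-3 replicate 3, which brought in Mthfd2 at 1.01 and 1.06) and 0 to 3 in IP14D-1 against IP36D-3. It was 1 throughout in IP14D-101 and in R1 against ESC2, 5 in IP20D-3 against IP36D-3, 2 in IP14D-1 against IP20D-3 and 0 in IP14D-101 against R1. With the mean of a member's probe sets in place of 1 probe set, 2 were called in IP14D-101 and 2 in R1 against ESC2. For iPS against ES lines, 2 were called with fixed line means over the 18 arrays and 2 with the B6 x D2 F1 lines and arrays as replicates, and leaving out any line left 0. With the replicate number as a block, the counts were 4, 1, 8, 1 and 1 against ESC2 (IP14D-1, IP14D-101, IP20D-3, IP36D-3, R1), 3 and 5 in IP14D-1 and IP20D-3 against IP36D-3, 2 in IP14D-1 against IP20D-3 and 0 in IP14D-101 against R1, and the block changed no call of a member. Of 45 same-numbered array pairs 22 correlated best with their own number. Over single members, 512 of 540 values kept their direction and side of the threshold on leaving out 1 array. With the replicate block and with 1 probe set per gene, all 90 values each did so. Every line has each replicate number, and the probe set of a member stays the same. Neither alternative can thus change the size or direction of a difference, and only its p can move. The direction turned in 8 small uncalled differences on leaving out an array: Slc7a11 in IP14D-101 against ESC2 (-0.11 to 0.241), in IP36D-3 against ESC2 (-0.00898 to 0.059) and in IP14D-1 against IP20D-3 (-0.0428 to 0.202), Psph in R1 against ESC2 (-0.0182 to 0.0349) and in IP14D-1 against IP36D-3 (-0.0345 to 0.163), Aldh1l2 in R1 against ESC2 (-0.0555 to 0.105), Mthfd2 in IP14D-1 against IP20D-3 (-0.24 to 0.108) and Slc7a5 in IP14D-101 against R1 (-0.106 to 0.0399). The cause was not tested. Signal limits Slc7a11 in all lines and Aldh1l2 in 4, where values lie near background.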
